A study of Rattus norvegicus with 57 samples.

Results

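The 8 liver genes Dab1, Inmt, Mmd2, Nox4, Kcnj15, Sebox, Hes5 and Ildr2 were followed in rats given methapyrilene, a histamine H1 receptor antagonist that is toxic to the rat liver. The genes were chosen by their low signal in treated livers against the controls of the same day, mostly at 80 mg/kg on days 4, 8 and 15, so those values are described here without a test. Each gene was read from the probe set annotated to that symbol alone that had the highest mean log2 signal. All 8 were on the array and entered the set of 10725 genes tested, out of 31099 probe sets in the series.

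The animals were male Han Wistar rats aged 8 to 10 weeks at the start, housed singly. They received 0, 30 or 80 mg of methapyrilene per kg body weight by mouth each day. The vehicle, which the controls received alone, was carboxymethylcellulose. Livers were taken on day 4, 8 or 15, or on day 24, which was 14 days of dosing followed by 10 days without it. Each of the 12 groups of dose and day held 5 arrays, 1 per animal, except the day 24 controls, the 30 mg/kg group of day 24 and the 80 mg/kg group of day 4, which held 4. The arrays were Affymetrix Rat Genome 230 2.0 chips, and a value is the MAS5 signal of a probe set, a robust mean brightness over its probe pairs on a scale common to all arrays. RNA came from a small piece of whole liver, so a lower signal can come from fewer cells of a type or from less RNA per cell, and these cannot be told apart. Signals of different probe sets are not compared with each other.

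The 57 arrays shared a trimmed mean signal of 99.99. Log2 signals of 2 arrays of the same group correlated at 0.924 or more, with a median of 0.936. The ratio of the 3′ to the 5′ actin control signal, a measure of RNA integrity, had a median of 4.93 and a lowest value of 3.77. It stood highest at 9.76 in replicate 4 of the day 24 controls and at 9.30 in replicate 4 of the 30 mg/kg group of day 24. The shift was not limited to these arrays. Over all arrays of day 24 the ratio ran from 5.84 to 9.76, and over all arrays of the earlier days from 3.77 to 6.37. A comparison of day 24 with an earlier day is therefore also a comparison of arrays that mostly differed in this ratio. Hepatocyte markers were well above background throughout, with geometric mean signals of 5935 for Alb and 6021 for Ttr. The median signal of all values was 17.1, and the 20th percentile, taken here as the floor, was 3.31.

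The 8 genes do not form a pathway. Dab1 is a cytoplasmic adaptor that passes on the reelin signal from the lipoprotein receptors Vldlr and Lrp8. Inmt is an enzyme that moves a methyl group from S-adenosylmethionine onto indole amines and other small molecules, and Nox4 is a membrane oxidase that makes hydrogen peroxide. Mmd2 belongs to the progestin and adipoQ receptor (PAQR) family of membrane proteins. Kcnj15 is an inwardly rectifying potassium channel. Sebox is a homeobox factor known from the oocyte, Hes5 is a repressor of transcription switched on by Notch, and Ildr2 is an angulin, a membrane protein of the corners where cells of an epithelium meet, also linked to hepatic lipid handling. Hepatocytes carry out most methylation of small molecules in the body, while stellate cells are the main source of reelin in liver.

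RefSeq listed 12 promoter windows for the 8 genes in the rat build GRCr8, each with 250 bases before and 50 after a start site. Mmd2, Nox4 and Inmt, the 3 members with the largest difference from the controls on day 15 at 80 mg/kg, each had 1 listed start and 1 probe set, and their windows are shown to set these promoters side by side. Capitals mark exact matches to the motifs named below, and each sequence reads 5′ to 3′ toward the gene.
Inmt (chr4:85652706-85653005, minus strand): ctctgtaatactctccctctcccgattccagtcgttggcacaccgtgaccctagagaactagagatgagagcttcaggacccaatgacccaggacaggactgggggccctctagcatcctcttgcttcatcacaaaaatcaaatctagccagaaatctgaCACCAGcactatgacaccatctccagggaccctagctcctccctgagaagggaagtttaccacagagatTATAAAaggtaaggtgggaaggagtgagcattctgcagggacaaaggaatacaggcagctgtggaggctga
Mmd2 (chr12:17076001-17076300, plus strand): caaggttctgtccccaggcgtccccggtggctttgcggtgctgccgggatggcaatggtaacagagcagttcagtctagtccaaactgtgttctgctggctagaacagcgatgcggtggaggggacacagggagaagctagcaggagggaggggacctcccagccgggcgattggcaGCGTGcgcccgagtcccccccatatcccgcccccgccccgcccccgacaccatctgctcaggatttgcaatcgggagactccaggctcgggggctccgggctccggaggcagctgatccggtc
Nox4 (chr1:150313639-150313938, plus strand): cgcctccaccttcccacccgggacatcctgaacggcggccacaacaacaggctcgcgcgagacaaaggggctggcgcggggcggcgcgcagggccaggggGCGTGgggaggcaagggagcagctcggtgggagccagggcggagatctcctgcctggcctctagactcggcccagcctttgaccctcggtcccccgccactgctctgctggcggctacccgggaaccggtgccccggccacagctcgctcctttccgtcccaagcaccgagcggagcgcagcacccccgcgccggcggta
The 3 windows differed in composition. G and C made up 51.0% of the Inmt window, 66.0% of the Mmd2 window and 73.0% of the Nox4 window, against a median of 51.7% over 33469 promoters of the same length. The Inmt window held a TATA box (TATAAA) that began 21 bases before the start site, and an N box, the motif that HES factors bind (CACNAG, found as CACCAG). The Mmd2 and Nox4 windows each held the dioxin response core (GCGTG), on the strand shown.

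Over all 12 windows, and on both strands, the dioxin response core was in 6 windows of 5 members, against 29.7% of all promoters. The N box was in 5 windows of 4 members, against 43.1% of all promoters. The letters of the TATA box were in 2 windows, against 14.2% of all: that of Inmt, and 1 of Ildr2 on the opposite strand (TTTATA, 13 bases before the start site). The antioxidant response core (TGACNNNGC, 12.1% of all promoters), the HNF1 element (GTTAAT, 7.45%) and the E box (CACGTG, 6.42%) each had a match in 1 window, always one of Ildr2. No window held the letters searched for C/EBP (TTGCNNAA, 10.6% of all promoters), HNF4 (CAAAGTCC, 1.40%), FOXA (TGTTTAC, 3.78%), the ATF4 composite site (TGATGNAA, 3.98%) or the GAS element (TTCNNNGAA, 8.87%). The N box and the dioxin response core of 1 Ildr2 window shared 1 base. A match says only that the letters are present, and the list of motifs was written from general knowledge.

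At 80 mg/kg the members were low from the first time point. Every array of the 80 mg/kg group lay below every control array for 7 of 8 members on day 4 (not Inmt), 7 of 8 on day 8 (not Hes5) and 6 of 8 on day 15 (neither Hes5 nor Ildr2). Among all genes tested the same held for 6.62%, 11.3% and 14.6% on these days, and since these comparisons chose the members the counts are given as description. The members' median log2 change from the control was -1.99, then -2.69 and then -3.12 over these 3 days, where the median over all genes was 0.08, 0.15 and 0.16. After recovery it was -0.43, beside 0.04 for all genes.

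**Figure D1:**
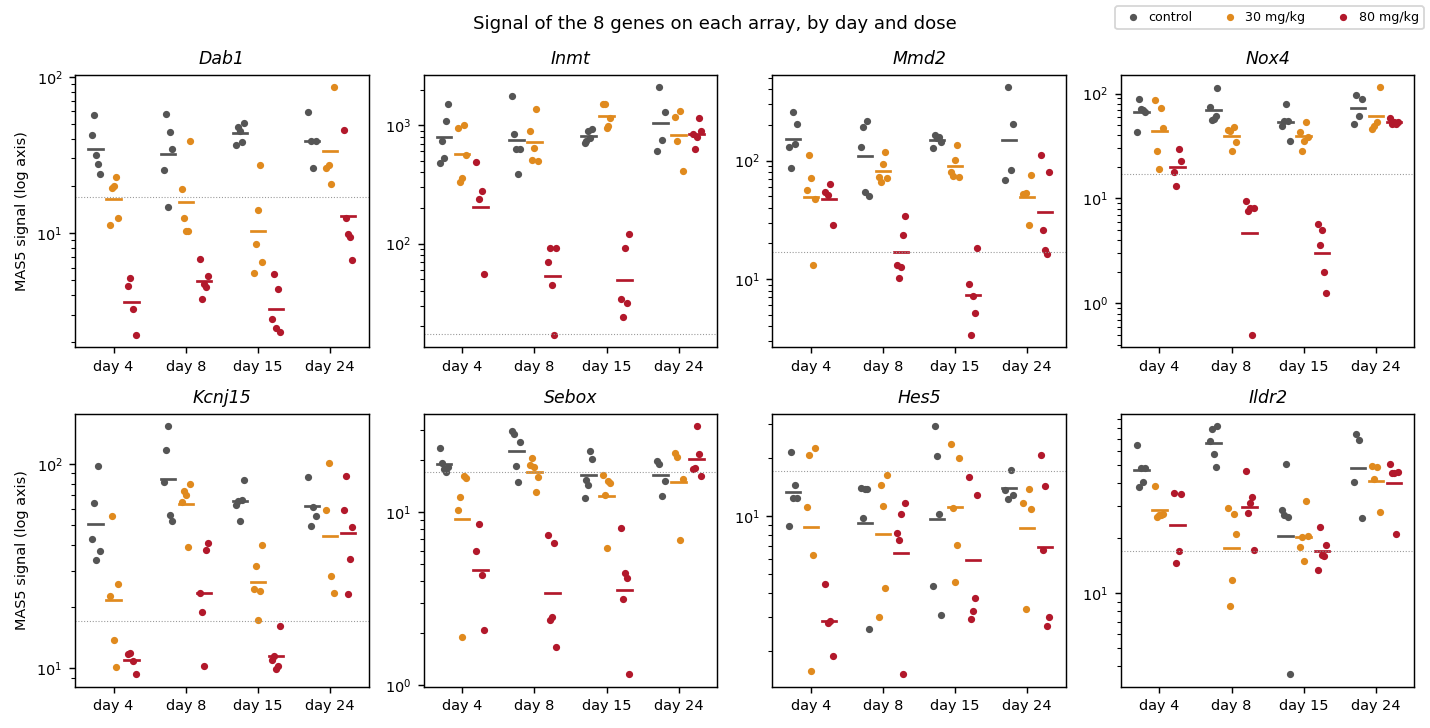
Signal on each array (log axis) of the 8 genes by day, with controls in grey, 30 mg/kg in orange and 80 mg/kg in red, bars at the geometric mean of a group and a dotted line at the median signal of all values, 17.1. On day 15 the 80 mg/kg arrays lie below all controls in every panel but those of Hes5 and Ildr2, and Nox4 and Inmt lie within the controls' range again on day 24.

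Among the enzymes, Inmt, the indolethylamine N-methyltransferase (GRCr8 chr4:85648459-85652755), lay above the median signal of all values on 56 of 57 arrays. Its day 4 controls read 484, 525, 739, 1088 and 1511, and the 80 mg/kg arrays 55.0, 236, 278 and 492. The highest of the 4 treated livers thus overlapped the lowest control, and the log2 SD of the treated livers was 1.35, the largest of the 8 members in that group. On day 8 the controls gave 390.3, 624, 630.1, 843 and 1775 and the 80 mg/kg arrays 16.9, 44.3, 70.0, 91.3 and 91.8. By day 15 the controls lay close together at 708, 729, 783, 896 and 929.9, and the 80 mg/kg arrays read 24.0, 31.8, 33.8, 92.4 and 120.2. All treated livers of days 8 and 15 were below every control. The log2 difference was -3.80 ± 0.46 (SE) on day 8 and -4.03 ± 0.46 on day 15, a 16.4-fold lower signal.

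On day 15 Inmt did not follow the dose. Its 30 mg/kg arrays of day 15 read 950.5, 989.8, 1145, 1509.6 and 1512, so that all 5 lay above all 5 controls. It was the only member above the controls without overlap, as were 3.69% of all genes tested. The difference of 0.57 ± 0.46 on the log2 scale (95% interval -0.36 to 1.51) did not pass the test over all 12 groups (limma adjusted p = 0.549), and the spread shared by all groups entered that test. In a fit of these groups alone the limma adjusted p was 0.0308, and over all alternatives it ran from 0.0308 to 0.713. On days 4 and 8 the changes at 30 mg/kg were -0.47 and -0.04, with adjusted p of 0.729 and 0.988 by limma. After recovery the 80 mg/kg arrays read 635, 788, 841, 894 and 1150.4 and the controls 605, 743, 1288 and 2102, all treated values within the controls' range.

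Nox4, the NADPH oxidase that makes hydrogen peroxide (chr1:150313736-150491480), was lower at 80 mg/kg without overlap on each day of dosing. The day 4 controls read 43.5, 66.9, 69.5, 70.5 and 89.5 and the 80 mg/kg arrays 13.1, 17.9, 23.0 and 29.7. On day 8 the controls read 55.4, 56.8, 61.7, 75.1 and 113, and the 80 mg/kg arrays 0.500, 7.54, 8.03, 8.05 and 9.45, where 1 array was at 0.500, under the floor. Controls of day 15 read 35.6, 49.2, 54.7, 55.0 and 80.1 and the 80 mg/kg arrays 1.26, 1.98, 3.60, 4.98 and 5.70. The 2 groups did not overlap on any of the 3 days, and none of the 10 arrays of days 8 and 15 reached the median signal of all values.

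The log2 difference of Nox4 from day 4 to day 15 was in turn -1.73, -3.89 and -4.13, with SE of 0.48, 0.45 and 0.45. With 3.31 added to each signal before the log, so that low values weigh less, the day 8 and day 15 differences were -2.98 and -3.10. At 30 mg/kg all 5 arrays of day 8 (28.4, 34.6, 43.8, 44.8 and 48.2) lay below the lowest control. Their log2 difference of -0.83 ± 0.45 did not pass the limma test (adjusted p = 0.526). The day 24 arrays of the 80 mg/kg group were tightly grouped at 51.4, 51.7, 53.5, 53.7 and 58.6, all within the range of the controls, which read 51.2, 61.5, 88.2 and 96.7. Their log2 difference was -0.42 (95% interval -1.39 to 0.54, limma adjusted p = 0.611).

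Of the membrane proteins, Mmd2 (chr12:17075870-17123255) had the most negative log2 difference of the 8 on day 15, at treated signals near the floor. With 3.31 added to each signal before the log it was -3.79, and that of Inmt, at -3.93, was the more negative. Its controls read 86.7, 129, 138, 205 and 257 on day 4, and the 80 mg/kg arrays 28.8, 50.9, 54.5 and 63.9. On day 8 the controls read 50.3, 53.8, 131, 194 and 216, and the 80 mg/kg arrays 10.2, 12.7, 13.2, 23.7 and 34.2. The day 15 controls were tight at 127, 144, 155, 159.6 and 163, while the 80 mg/kg arrays read 3.37, 5.22, 7.17, 9.10 and 18.4. These groups did not overlap on any of the 3 days, and the log2 difference was -1.68, -2.68 and -4.35 in turn, with SE of 0.52, 0.49 and 0.49.

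After recovery Mmd2 was still low in part of the treated livers. The 80 mg/kg arrays of day 24 read 16.3, 17.7, 25.9, 80.3 and 111, against controls at 68.7, 83.6, 202 and 419, so 3 of 5 were below all controls and the other two within their range. The 30 mg/kg arrays of day 24 read 28.5, 52.2, 52.8 and 75.6, 3 of 4 below all controls. That difference was -1.59 ± 0.55 on the log2 scale and did not pass the limma test (adjusted p = 0.26, unadjusted p = 0.00584). Both comparisons use the same 4 controls, which themselves spread from 68.7 to 419. During dosing at 30 mg/kg the change was -1.63 on day 4, when the arrays read 13.2, 47.7, 56.5, 71.9 and 111, and -0.40 on day 8. On day 15 it was -0.73 (adjusted p = 0.447 by limma over all groups, 0.0176 in a fit of these groups alone, and 0.0176 to 0.587 over all alternatives).

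Kcnj15, the potassium channel (chr11:48046953-48091285), lay below all controls at 80 mg/kg on each day of dosing, and at 30 mg/kg on day 15. The day 4 controls read 33.9, 37.3, 42.8, 64.4 and 97.7 and the 80 mg/kg arrays 9.33, 10.8, 11.8 and 11.9. Day 15 controls read 52.3, 62.9, 66.0, 66.6 and 82.9, the 30 mg/kg arrays 17.1, 24.0, 24.4, 31.5 and 40.1 and the 80 mg/kg arrays 9.86, 10.2, 10.9, 11.4 and 16.1. The 3 groups of day 15 were fully separated in order of dose. Their log2 changes from the control were -1.31 ± 0.37 at 30 mg/kg and -2.51 ± 0.37 at 80 mg/kg. The other Kcnj15 probe set did not pass the filter on low signal, so no second probe set bears on these values.

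On day 8 Kcnj15 was nearer the controls. The 80 mg/kg arrays read 10.3, 18.9, 23.3, 37.8 and 41.0 and the controls 52.3, 56.0, 81.4, 116 and 152, still without overlap, and the 30 mg/kg change was -0.40 (limma adjusted p = 0.763). On day 4 the 30 mg/kg change was -1.25 ± 0.37, with 4 of 5 arrays below all controls (limma adjusted p = 0.0946). Without replicate 2 of that group, its highest array at 55.5, it was -1.59 and passed. The same controls entered the 80 mg/kg comparison of day 4 that may have chosen Kcnj15, so neither result is independent of that choice. On day 24 the 80 mg/kg arrays read 23.0, 34.3, 49.0, 59.1 and 87.5, spread on both sides of the controls' range of 49.7 to 86.0 (change -0.44, adjusted p = 0.513 by limma).

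Dab1, the reelin adaptor (chr5:123621510-124742585), was separated by dose without overlap on days 4 and 15. On day 4 the controls read 23.9, 27.6, 31.5, 42.1 and 57.2, the 30 mg/kg arrays 11.2, 12.4, 19.4, 19.97 and 22.7 and the 80 mg/kg arrays 2.22, 3.26, 4.59 and 5.17. The 3 groups did not overlap. The day 8 controls read 14.6, 25.3, 34.7, 44.3 and 57.9, the 30 mg/kg arrays 10.2, 10.3, 12.4, 19.2 and 38.8 and the 80 mg/kg arrays 3.80, 4.54, 4.69, 5.28 and 6.84, and here the low dose overlapped the controls while the high dose did not. On day 15 the controls read 36.7, 38.2, 45.2, 47.9 and 50.8, the 30 mg/kg arrays 5.56, 6.49, 8.45, 14.1 and 27.2 and the 80 mg/kg arrays 2.31, 2.46, 2.81, 4.37 and 5.43, again without overlap.

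The log2 change of Dab1 at 80 mg/kg was -3.26 ± 0.44 (SE) on day 4 and -3.73 ± 0.42 on day 15. The size rests on signals near the floor, since 2 of 4 and 3 of 5 of these arrays were under 3.31. With 3.31 added to each signal before the log, the changes were -2.44 on day 4, -2.10 on day 8 and -2.81 on day 15. At 30 mg/kg it was -1.07 on day 4 (limma adjusted p = 0.224), -1.01 on day 8 (adjusted p = 0.337) and -2.07 ± 0.42 on day 15. After recovery the 30 mg/kg arrays read 20.7, 25.9, 27.1 and 86.0 beside controls at 25.9, 38.6, 38.9 and 59.4. The highest of these, 86.0, was the array with an actin ratio of 9.30. The 80 mg/kg arrays read 6.70, 9.47, 9.91, 12.4 and 45.6, so 4 of 5 stayed below every control and 1 lay among them. Only 1 of the 4 Dab1 probe sets passed the filter on low signal, so no second probe set bears on these values.

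The 2 transcription factors had low signals even in controls. Sebox (chr10:63897265-63898136) was above the median signal of all values on 21 of 57 arrays. Its day 4 controls read 17.0, 17.9, 18.3, 19.3 and 23.5, the 30 mg/kg arrays 1.89, 10.4, 12.3, 15.9 and 16.2 and the 80 mg/kg arrays 2.08, 4.34, 5.98 and 8.61. Both doses were below every control. On day 8 the controls read 15.0, 18.5, 25.4, 28.6 and 29.5 and the 80 mg/kg arrays 1.65, 2.38, 2.46, 6.64 and 7.37, and on day 15 the controls read 12.1, 14.4, 15.3, 20.3 and 22.5 and the 80 mg/kg arrays 1.15, 3.16, 4.16, 4.45 and 8.08, again with no overlap. The log2 differences at 80 mg/kg were -2.04, -2.72 and -2.23 on days 4, 8 and 15. Of these treated arrays 1 of 4, 3 of 5 and 2 of 5 were under the floor of 3.31, and with 3.31 added before the log the differences were -1.45, -1.89 and -1.47.

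Sebox at 30 mg/kg differed by -1.07 ± 0.44 on day 4, which did not pass the limma test (adjusted p = 0.252). When single arrays were left out, that difference ran from -1.28 to -0.50, the latter without 30 mg/kg replicate 3, at 1.89. The day 24 Sebox arrays at 80 mg/kg read 16.2, 17.9, 18.0, 21.7 and 31.6 and the controls 12.4, 15.2, 19.2 and 19.8. Of these treated values 2 of 5 were above all controls. Sebox was the only member whose mean was above that of the controls after recovery (0.32, limma adjusted p = 0.7). The gene begins 1402 bases after the end of Vtn, which encodes the plasma protein vitronectin. Vtn was bright, with a geometric mean of 6910.1 in the day 15 controls and 3436 at 80 mg/kg. It fell by 0.70 on the log2 scale on day 8 and by 1.01 on day 15 at 80 mg/kg (limma adjusted p = 1.69e-07 and 6.39e-12). On day 4 its change was -0.13 (adjusted p = 0.424 by limma), where that of Sebox was -2.04.

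Hes5, the Notch target (chr5:170804511-170807988), was above the median signal of all values on only 9 of 57 arrays. The day 4 controls read 8.86, 12.4, 12.4, 14.4 and 21.5 and the 80 mg/kg arrays 1.88, 2.79, 2.86 and 4.44, without overlap and with 3 of 4 treated arrays under the floor of 3.31. Their log2 difference was -2.22, and -1.43 with 3.31 added before the log. On day 8 the controls read 2.61, 9.71, 13.7, 13.8 and 13.9 and the 80 mg/kg arrays 1.51, 7.53, 8.17, 10.3 and 11.6. The day 15 controls ran from 3.08 to 29.2 and the 80 mg/kg arrays from 2.92 to 15.9. The groups overlapped on both later days, with log2 differences of -0.52 ± 0.67 and -0.70 ± 0.67. The day 8 difference was 0.004 without replicate 4 of the 80 mg/kg group, at 1.51. On day 24 the 80 mg/kg arrays ran from 2.69 to 20.6 and the controls from 12.27 to 17.35. Of these treated arrays 3 of 5 lay below all controls and 1 above. The other Hes5 probe set did not pass the filter on low signal. Its geometric means were 1.47 in the day 4 controls and 2.57 at 80 mg/kg, both under the floor, so it does not bear on these values.

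Ildr2, the angulin (chr13:81051723-81113590), was the one member that was lower at 30 than at 80 mg/kg on day 8. The day 8 controls read 48.9, 58.0, 68.2, 78.7 and 81.7, the 30 mg/kg arrays 8.56, 11.8, 21.1, 27.1 and 29.2 and the 80 mg/kg arrays 17.3, 27.3, 31.3, 33.7 and 46.3. Neither dose overlapped the controls, and the 2 doses overlapped each other. The log2 change was -1.90 ± 0.39 at 30 mg/kg and -1.15 ± 0.39 at 80 mg/kg. On day 4 the controls read 38.3, 40.4, 48.5, 48.6 and 64.7, the 30 mg/kg arrays 26.0, 26.6, 26.7, 26.9 and 38.6 and the 80 mg/kg arrays 14.7, 17.0, 35.0 and 35.5, where the highest 30 mg/kg value reached the lowest control.

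The Ildr2 controls of day 15 were low themselves, at 3.61, 26.0, 26.6, 28.6 and 50.6, and the 80 mg/kg arrays read 13.5, 15.9, 16.1, 18.4 and 23.1, all within the controls' range. Their difference of -0.26 ± 0.39 turned to 0.07 without control replicate 3 and was -0.89 without control replicate 5, which read 3.61. A pair of other Ildr2 probe sets passed the filter. On day 8 both had all 5 arrays of the 30 mg/kg group and all 5 of the 80 mg/kg group below all controls, with log2 differences of -1.32 and -1.88 at 30 mg/kg and -1.30 and -1.37 at 80 mg/kg. On these probe sets the 2 doses were thus closer together on day 8. Day 15 differences of the same 2 probe sets were -0.37 and -1.67 at 80 mg/kg, and 0.41 and -0.87 at 30 mg/kg. With the probe sets of the gene averaged, the 80 mg/kg difference of day 15 was -0.77, so its size depended on the probe set. On day 24 the 80 mg/kg arrays read 21.0, 45.1, 45.6, 45.7 and 51.0 and the controls 25.7, 40.5, 69.0 and 74.2, with 4 of 5 treated values inside the controls' range.

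**Figure D2:**
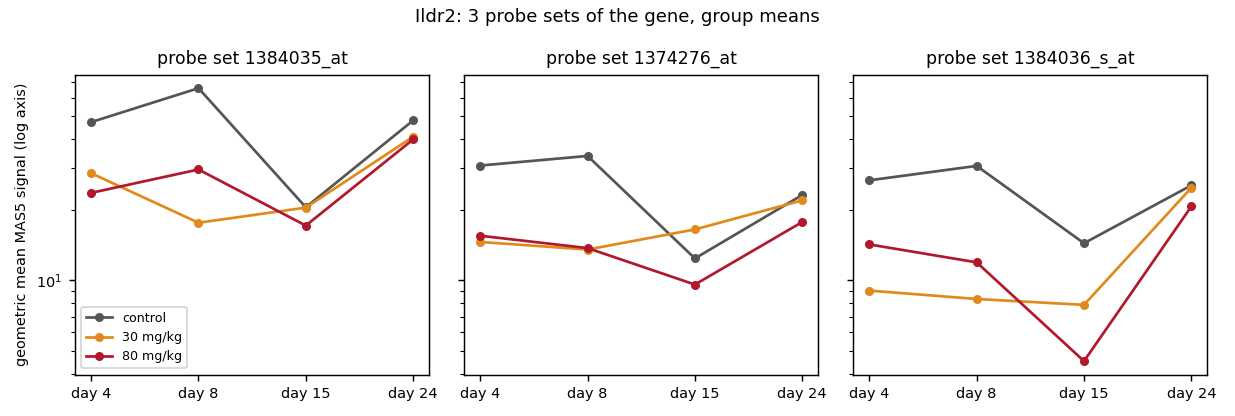
Geometric mean signal (log axis) by day of the 3 Ildr2 probe sets that passed the filter, with controls in grey, 30 mg/kg in orange and 80 mg/kg in red. In all 3 panels both doses lie below the controls on days 4 and 8, and the controls are lowest on day 15, where the first panel's control mean of 20.5 is near the 20.4 of the 30 mg/kg group.

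The order of the 12 group levels separated the members. A gap between neighbouring levels was taken as larger than the spread when it exceeded the larger of the 2 standard deviations of log2 signal. Dab1 had 2 such gaps, below the day 8 controls (31.9) and below the 30 mg/kg group of day 15 (10.3), so its 3 lowest levels were all of the 80 mg/kg groups under dosing, from 4.93 to 3.28. Inmt had such gaps above and below the 80 mg/kg group of day 4 (205), and the levels above, from 572 to 1197, did not differ beyond their spread from their neighbours. Nox4 was ordered in the same way around its day 4 level of 19.98. Mmd2 had gaps below the 30 mg/kg group of day 8 (82.2) and above the 80 mg/kg group of day 15 (7.33). Kcnj15, Sebox, Hes5 and Ildr2 had no gap that large between any pair of neighbouring levels.

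The course of the log2 change over the days also differed among members in the data that chose them. At 80 mg/kg the log2 change of Inmt, Nox4 and Mmd2 was between -1.68 and -1.95 on day 4 and between -4.03 and -4.35 on day 15. Dab1 was already at -3.26 on day 4, and Kcnj15 and Sebox were at -2.22 and -2.04 then and at -2.51 and -2.23 on day 15. Hes5 ran the other way, from -2.22 on day 4 to -0.70 on day 15. These differences between days at 80 mg/kg were not tested, since they use the values that chose the genes.

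**Figure D3:**
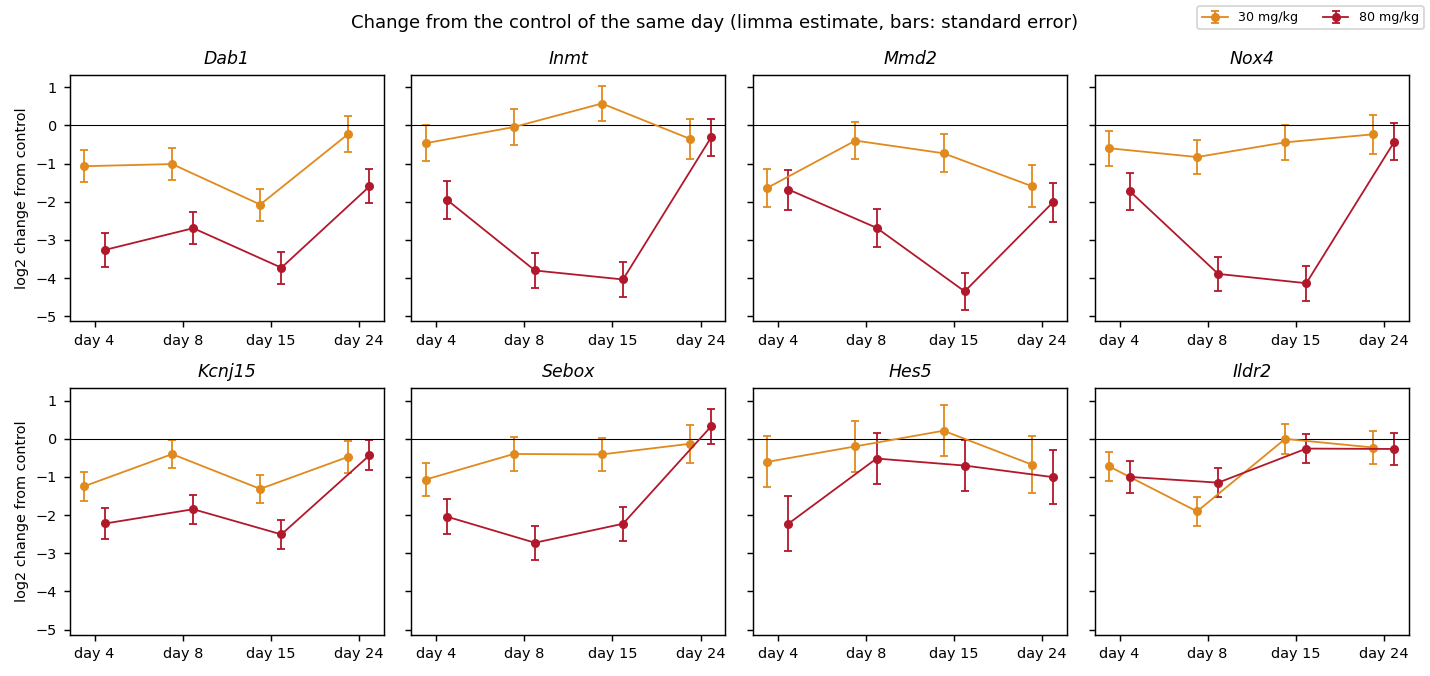
Log2 change from the controls of the same day for each gene at 30 mg/kg (orange) and 80 mg/kg (red), with bars for the limma standard error and a line at 0. At 80 mg/kg Inmt, Mmd2 and Nox4 move from between -1.68 and -1.95 on day 4 to between -4.03 and -4.35 on day 15, while Hes5 is lowest on day 4 and Ildr2 is lowest at 30 mg/kg on day 8.

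Dose was compared within each day. Every 80 mg/kg array lay below every 30 mg/kg array for 1 of 8 members on day 4 (Dab1), 5 of 8 on day 8 (Dab1, Inmt, Mmd2, Nox4 and Sebox) and 5 of 8 on day 15 (Dab1, Inmt, Mmd2, Nox4 and Kcnj15). The same held for 5.58%, 9.85% and 13.6% of all genes tested, and these counts are again description. Mmd2 on day 4 was the member in which the doses were closest, with log2 changes of -1.63 at 30 mg/kg and -1.68 at 80 mg/kg. The comparisons of both doses share the controls of the day.

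At 30 mg/kg the same comparisons could be tested for most members. On day 4 all 8 changes were negative (median -0.90, and 0.01 over all genes), none of the 8 was called lower, against 0.252% of all genes, and 2 of 8 (Dab1 and Sebox) lay below all controls, as did 0.848% of all genes. On day 8 the median was -0.40 (0.004 over all genes), 1 of 8 was called lower (Ildr2), as were 0.0559% of all genes, and 2 of 8 (Nox4 and Ildr2) lay below all controls, as did 1.21%. Day 15 had a median of -0.43 (0.01 over all genes), 2 of 8 were called lower (Dab1 and Kcnj15), as were 1.88% of all genes, and these 2 also lay below all controls, as did 2.85%. Ildr2 on day 8, and Dab1 and Kcnj15 on day 15, were among the largest falls of those comparisons and may have been chosen there, so no p is given for them.

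None of the members outside the largest falls of these comparisons passed. By limma, 3 of 7 had an unadjusted p under 0.05 on day 4 (lowest adjusted p = 0.0946), 1 of 7 on day 8 (lowest adjusted p = 0.337) and 0 of 6 on day 15 (lowest adjusted p = 0.447). The count of members called rested on single livers. It was 1 on day 4 without 30 mg/kg replicate 2, 0 on day 8 without 30 mg/kg replicate 2 or 3, and 1 on day 15 without control replicate 2, 4 or 5 or without 30 mg/kg replicate 1 or 3.

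Time at 30 mg/kg was compared next, to see whether longer dosing at the low dose deepened the change. Between day 4 and day 15 none of the 8 members was called lower by limma, against 1.78% of all genes, and between day 8 and day 15 none, against 0.587%. The second count was 1 in a fit of only these groups, with array weights and with the replicate number as a block. Of the 5 members open to each test, 1 and 0 had an unadjusted p under 0.05. Inmt was higher on day 15 than on day 4 by 1.06 ± 0.46 on the log2 scale, which did not pass (limma adjusted p = 0.205, unadjusted p = 0.0262). The 30 mg/kg effect itself, each day against its own controls, differed between day 4 and day 15 for none of the 8, against 0.0653% of all genes. For the 5 members open to the test the adjusted p of that difference was 0.731 or more by limma, with 0 of 5 at an unadjusted p under 0.05.

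After recovery the members were set against the controls of day 24. On that day at 80 mg/kg 2 of 8 members were called lower (Dab1 and Mmd2), as were 3.08% of all genes, and none of the 8 lay wholly below the controls, against 3.79%. Dab1 was at -1.60 ± 0.44 and Mmd2 at -2.02 ± 0.52 on the log2 scale, and both were among the 10 largest falls of that comparison, so no p is given. The count was 0 in a fit of only these groups, and 1 without control replicate 2 or without control replicate 3 of day 24. For the other 6 the change lay between -1.01 (Hes5) and 0.32 (Sebox), with 0 of 6 at an unadjusted p under 0.05 and a lowest adjusted p of 0.378 by limma. The 95% interval was -1.30 to 0.68 for Inmt, -1.39 to 0.54 for Nox4 and -2.43 to 0.42 for Hes5. Without control replicate 3 of day 24, the difference of Inmt was 0.02.

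**Figure D4:**
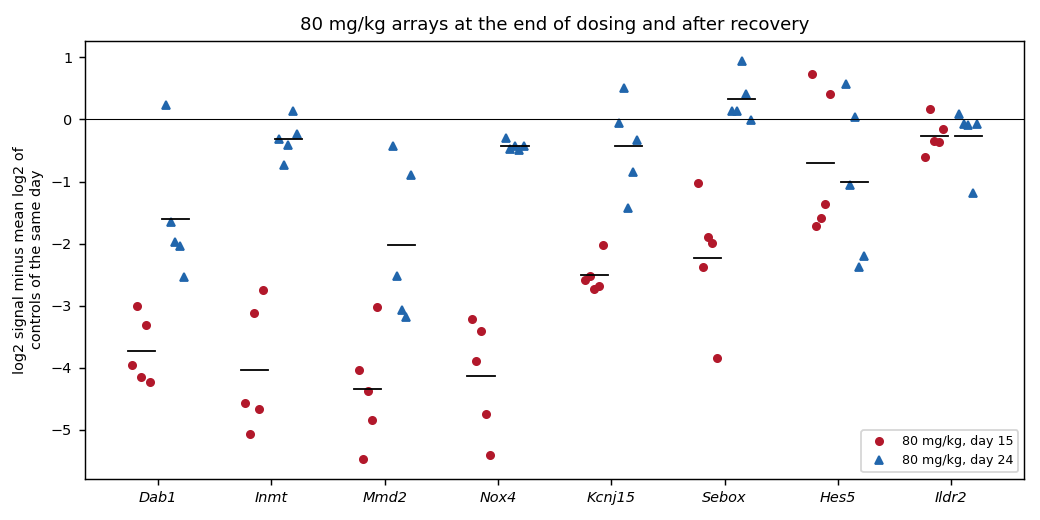
Log2 signal of each 80 mg/kg array minus the mean log2 signal of the controls of the same day, on day 15 (red circles) and on day 24 (blue triangles), with black bars at the group means. The day 24 means of Inmt, Nox4, Kcnj15, Sebox and Ildr2 lie between -0.44 and 0.32. Those of Dab1 and Mmd2 are -1.60 and -2.02 with 1 Dab1 array above 0, and that of Hes5 is -1.01 with arrays on both sides of 0.

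On day 24 the 80 mg/kg group was below the 30 mg/kg group for 1 of 8 members called (Dab1, log2 difference -1.37 ± 0.44), as for 2.23% of all genes. That count was 0 when any of the 4 arrays of the 30 mg/kg group was left out, or any of replicates 2 to 5 of the 80 mg/kg group. At 30 mg/kg against the controls none of the 8 was called lower on day 24, against 0.0466% of all genes, with 1 of 8 at an unadjusted p under 0.05 (Mmd2) by limma. From day 15 to day 24 at 30 mg/kg 1 of 8 was called higher (Dab1, 1.70 ± 0.44), as were 12.5% of all genes. Without 30 mg/kg replicate 4 of day 15 that count was 2. Dab1 was among the largest falls from control at 80 mg/kg on day 24 and at 30 mg/kg on day 15. Both of its calls here thus use values that may have chosen it, and are given as description. At 30 mg/kg the actin ratio ran from 4.29 to 5.52 on day 15 and from 6.54 to 9.30 on day 24, so it changed together with the day. Ildr2 was higher by 1.004 ± 0.41 without passing (limma adjusted p = 0.069). The 30 mg/kg effect differed between day 15 and day 24 for none of the 8, against 1.09% of all genes, with 0 of 6 at an unadjusted p under 0.05 by limma, and the count was 1 without that same array.

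Likeness between members was greater over groups than among the livers of a group. Over the 28 pairs of members, Pearson's r of the 12 group means ran from 0.37 to 0.96 with a median of 0.73, a likeness that the choice of members sets in part. Within groups, as deviations from the group mean over 57 arrays, r ran from -0.36 (Nox4 and Kcnj15) to 0.31 (Inmt and Nox4) with a median of 0.07. These points share arrays and are given as description.

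For each member, the 2 other genes whose 12 group means were most like its own were found by Pearson's r. They were Ust5r and Slc22a8 for Nox4 (r = 0.994 and 0.993), Pdk2 and Gpt for Inmt (0.985 and 0.984) and Nudt16 and Cask for Dab1 (0.975 and 0.971). For Kcnj15 they were R3hdm2 and Ipo8 (0.971 and 0.960), for Sebox Gphn and Trhde (0.961 and 0.960) and for Mmd2 Derl2 and Tmlhe (0.943 and 0.943). Hes5 (Snapin 0.868, Nudt16l1 0.865) and Ildr2 (Pgm2l1 0.847, Tada1 0.826) had no gene as close. The genes most like Nox4 had log2 changes at 80 mg/kg on day 15 of -2.95 for Ust5r and -3.66 for Slc22a8, and were at 0.02 and 0.24 on day 24.

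Other genes of each member's pathway or family were counted at 80 mg/kg on day 15, in lists written from general knowledge, with 20.5% of all genes called lower and 38.8% called higher by limma at an adjusted p under 0.05. Around Dab1, 2 of 17 tested genes of reelin signalling fell and 11 rose. The reelin receptor Vldlr rose by 2.51, Pafah1b1 by 1.003 and the Src family kinase Yes1 by 0.89, while Pik3r1, the regulatory subunit of PI3-kinase, changed by -1.27 on the log2 scale. The other gene that fell was Reln, which encodes reelin itself, at -0.68. Among small-molecule methyltransferases, the list of Inmt, 11 of 15 tested fell and 4 rose. Gnmt, which methylates glycine, changed by -1.66, the betaine-homocysteine enzyme Bhmt by -1.04 and the arsenite methyltransferase As3mt by -0.98, and Coq5, of coenzyme Q synthesis, rose by 0.92. The median change was -0.61 in this list and 0.39 in the reelin list, beside 0.16 over all genes.

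The other lists were more mixed. Of 8 tested PAQR family genes, 3 fell (Paqr9 -2.38, the adiponectin receptor Adipor2 -0.69, and Paqr7 -0.42) and 2 rose, Paqr8 by 1.12. No partner of Nox4 among 7 NADPH oxidase genes fell by limma (0 at an unadjusted p under 0.05), and 2 rose: Cyba, the subunit that Nox4 binds, by 0.51, and Ncf4 by 0.94. Of 9 genes of inward rectifier channels and their subunits, 2 fell (the sulfonylurea receptors Abcc8 -1.79 and Abcc9 -0.68) and the channel Kcnj8 rose by 0.93. Of 25 Notch pathway genes 3 fell (Hes6 -0.85, and the gamma-secretase subunits Psenen -0.73 and Ncstn -0.27) and none rose (5 lower and 0 higher at an unadjusted limma p under 0.05). Of 12 genes of angulins and junctions 5 fell, with the claudins Cldn1 at -0.52 and Cldn14 at -0.52 and cingulin (Cgn) at -0.43, and 4 rose, with the angulin Ildr1 at 1.58. Only 1 of 25 homeobox genes listed for Sebox passed the filter, Uncx, at -0.27 (adjusted p = 0.507 by limma). The medians of these lists were 0.16 for PAQR, 0.07 for NADPH oxidase, -0.20 for inward rectifiers, -0.08 for Notch and 0.09 for junction genes.

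Cell type markers were counted in the same livers, where 16.6% of all genes were called lower and 34.2% higher at 80 mg/kg on day 8, and 20.5% and 38.8% on day 15. At 80 mg/kg 9 of 11 tested hepatocyte markers were called lower on day 8 and 9 of 11 on day 15 (medians -0.37 and -0.40). By limma 0 of 11 were called on day 4 and on day 24, with 0 and 4 lower at an unadjusted p under 0.05 and medians of 0.10 and -0.21. Their summed signal over 11 genes ran from 74122 to 98156 in the day 15 controls and from 57548 to 82635 at 80 mg/kg. Biliary markers were called higher for 6 of 6 tested on day 15, with summed signals of 220.2 to 283.6 in controls and 956 to 1338 at 80 mg/kg, and Krt7, a defining one, was under the floor at 1.80. Macrophage markers were called higher for 8 of 9 and lower for 1 on day 8, when their sum ran from 2724 to 3887 in controls and from 4214 to 5251 at 80 mg/kg. Of 11 stellate cell markers 3 were called lower and 3 higher on day 15, with sums of 2681 to 3227 and 2160 to 3082, and of 8 endothelial markers 2 were lower and none higher (3 and 0 at an unadjusted limma p under 0.05), with sums of 1971 to 2780 and 2052 to 2477. None of the 7 neuronal markers passed the filter, and their sum never exceeded 51.3 on any array of any group. On day 4, with 9.19% of all genes called lower and 18.3% higher, 4 of 6 biliary markers were called higher, 3 of 11 stellate cell markers lower and 2 higher, and 1 of 9 macrophage markers lower and 2 higher. Macrophage markers on day 15 were called higher for 6 of 9 and lower for 1. On day 24 at 80 mg/kg 3.08% of all genes were called lower and 7.15% higher. Called higher then were 7 of 9 macrophage, 4 of 8 endothelial, 4 of 11 stellate cell and 2 of 6 biliary markers, and none of these lists had a marker called lower. The part of these shifts in the low signal of the members was not tested.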

How the data were processed

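Total RNA from 57 rat livers was measured on Affymetrix Rat Genome 230 2.0 arrays, 1 array per animal. The deposited intensity values are MAS5 signals on a linear scale, per the submitters' processing notes, with no version and no detection calls used here. They came already scaled: the mean with 2% trimmed from each end was 99.99 on every array, and scaling of this kind makes changes relative to the array's mean. Background correction and summary over probes had been done, so probe-level steps could not be varied. The number of arrays limits the precision.

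Probe sets were named through GEO's platform annotation, with symbols updated through RefSeq: 20826 of 31099 had 1 symbol, 436 several and 9837 none, and 20758 of the first matched RefSeq. Control probe sets were left out. Signals were taken to log2. Probe sets above the median of all values (17.1) on at least 4 arrays were kept, and each gene was represented by the one of highest mean, leaving 10725 genes. Means of the 12 groups were fitted with limma 3.58.1 in R 4.3.3, with a variance trend, over all 57 arrays. All genes entered the Benjamini-Hochberg adjustment, and a call is a two-sided adjusted p under 0.05. Standard errors (SE) are limma's. The script was tested on simulated data. Promoter windows were searched and figures drawn with Python 3.11.15 and matplotlib 3.10.9.

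The members and all lists were chosen with earlier results of these data known. The comparisons of 80 mg/kg with control and with 30 mg/kg on days 4, 8 and 15 have no p for any member, nor has any comparison that uses a treated group in which the member ranked among the 10 largest falls from control, or the first 6 called falls without overlap. Named were the 8 members, the 2 genes most like each, and Vtn. Per list, up to 3 genes with the largest change in the direction most calls took at 80 mg/kg on day 15 were named. Up to 1 gene called the other way was added, and Reln besides in the reelin list. For a list with no call the rule was the genes of highest signal. Comparisons of both doses share controls, so the tests of 30 mg/kg against control are not independent of a choice made at 80 mg/kg. Replicate numbers do not pair the livers: same-numbered arrays of a day correlated over 0.1 in 0 of 54 pairs, as deviations from group means. Alternatives in normalization, offset, filter, probe set rule, variance model, replicate block and left-out arrays are given in the closing section. The labels name the arrays as biological replicates.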

Additional observations from a re-analysis of the deposited data

Results flagged for a closer look

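In 11 of the 96 groups of 8 genes by 12 dose and day groups, 1 array lay far from the rest on the log2 scale by Dixon's test at the 95% level, and chance flags about 1 in 20 groups. For Nox4, replicate 4 of the 80 mg/kg group on day 8 read 0.500, where the others ran from 7.54 to 9.45. Replicate 4 of the 30 mg/kg group on day 24 read 115.6 for Nox4, where the others ran from 46.2 to 54.0, and its actin ratio was 9.30. For Kcnj15, 1 array at 30 mg/kg on day 8 read 39.1 and the others 65.0 to 79.6. Sebox was low in replicate 3 of the 30 mg/kg group on day 4 (1.89, others 10.4 to 16.2) and in replicate 3 of that dose on day 15 (6.25, others 12.7 to 16.6).

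Hes5 was low in a control of day 8 (2.61, others 9.71 to 13.9), in an 80 mg/kg liver of day 8 (1.51, others 7.53 to 11.6) and in a 30 mg/kg liver of day 24 (3.28, others 10.9 to 13.8). Ildr2 was high in a 30 mg/kg liver of day 4 (38.6, others 26.0 to 26.9). It was low in a control of day 15 (3.61, others 26.0 to 50.6) and in an 80 mg/kg liver of day 24 (21.0, others 45.1 to 51.0). The numbers of replicates do not mark the same animal across groups.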

How the results depend on the processing

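Of the counts of members called, those for 30 mg/kg against control on day 24 and for 30 mg/kg between days 4 and 15 stayed at 0 under each alternative run. With the stricter filter, which removed Dab1, Sebox, Hes5 and Ildr2, 0 were called at 30 mg/kg on day 8, 1 on day 15, 1 at 80 mg/kg on day 24, 0 for 80 against 30 mg/kg on day 24, and 0 called higher at 30 mg/kg from day 15 to day 24. The medians of the 80 mg/kg changes were then -3.24 on day 8 and -4.08 on day 15. With the offset of 3.31 before the log these medians were -1.99 and -2.51, and 2 members were called higher at 30 mg/kg from day 15 to day 24. With arrays set to a common median the day 15 median was -3.25. In fits of only the groups compared, 0 were called at 30 mg/kg on day 8, 0 at 80 mg/kg on day 24, 0 for 80 against 30 mg/kg on day 24, 1 lower at 30 mg/kg between days 8 and 15, and 2 higher from day 15 to day 24. Count of 80 against 30 mg/kg on day 24: it was 0 also with no filter, probe sets of a gene averaged, no variance trend and array weights. Array weights also gave 1 member lower at 30 mg/kg between days 8 and 15.

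With the replicate number as a block (replicate block), 80 against 30 mg/kg on day 24 gave 0 members called in place of 1, and 30 mg/kg between days 8 and 15 gave 1 in place of 0. The block changed no other count beyond 1.5 times. The numbers do not pair the animals, so these values describe the fit only.

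These alternatives were chosen after seeing the data. The actin ratio as a covariate gave 1 called at 30 mg/kg on day 15, 0 for 80 against 30 mg/kg on day 24 and 2 higher at 30 mg/kg from day 15 to day 24. Leaving out the 2 arrays of the highest actin ratio gave 0 for 80 against 30 mg/kg on day 24. The next probe set of the gene gave 0 at 30 mg/kg on day 8.

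Leaving out 1 array at a time, the counts at 30 mg/kg ran from 0 to 1 on day 4, 0 to 1 on day 8 and 1 to 2 on day 15. They ran from 1 to 2 at 80 mg/kg on day 24, 0 to 1 for 80 against 30 mg/kg on day 24, 1 to 2 for members called higher at 30 mg/kg from day 15 to day 24, and 0 to 1 for a different 30 mg/kg effect between these days. The medians at 80 mg/kg ran from -2.21 to -1.72 on day 4, -2.87 to -2.47 on day 8 and -3.15 to -3.04 on day 15. Single changes turned at 80 mg/kg for Hes5 on day 8 (from -0.97 to 0.0039, the latter without replicate 4), Ildr2 on day 15 (-0.89 to 0.067, the latter without control replicate 3) and Inmt on day 24 (-0.58 to 0.021, the latter without control replicate 3). Except where the array or gene left out shows it, the cause was not tested.

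Signals under about 3 carry little order, which limits Hes5, Sebox and the lowest Nox4 and Dab1 values, and 4 or 5 arrays per group limit all intervals. The 80 mg/kg group of day 4 and 2 groups of day 24 hold 4 arrays.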
